A study of Mus musculus with 12 samples.

Results

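The interferon-stimulated genes are those switched on when a cell senses an interferon, and they were followed here in fat pads from the abdomen of female mice of C57BL/6 background. They were 41 listed genes, type I and type II interferon targets, found by the gene symbol of each probe set, and 38 of the 41, with 60 probe sets, could be read among 18194 genes. Ifi44, Isg15 and Tgtp1 had no probe set that the annotation used gives to 1 gene, and were not analysed here. The 12 arrays covered 4 groups of 3 pools: p47phox null mice on the high fat diet, wild type mice on the high fat diet, p47phox null mice on casein, and wild type mice on casein. The diets ran for 13 weeks from postnatal day 28. The null mice lack p47phox, the organizer subunit of the phagocyte NADPH oxidase encoded by Ncf1; the labels name no promoter or cell type to which the loss is limited. They give neither the allele nor the number of animals behind a pool, so p-values measure the spread between pools, and in a piece of tissue fewer cells of a type and less RNA per cell cannot be told apart. Values are on the log2 scale, and the authors had centred each probe set on its median over the 12 arrays. A value therefore shows how far a pool lies from the middle pool and not how much of the transcript was present, and whether the defining markers of fat are abundant cannot be checked. Each gene's value averages its probe sets.

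Interferon alpha and beta, the type I interferons, bind a receptor made of Ifnar1 and Ifnar2 and signal to an interferon-stimulated response element (ISRE) in DNA. Interferon gamma, the type II interferon of T and natural killer cells, binds Ifngr1 and Ifngr2 and signals to a gamma-activated site (GAS). Its targets include the immunity-related GTPases (Igtp, Irgm1, Irgm2, Iigp1) and the guanylate-binding proteins (Gbp2, Gbp3). Effectors of these families attack the vacuoles of intracellular microbes, while many of the type I targets block viral replication. The sets overlap, because both interferons induce many of the same genes. In adipose tissue interferon gamma is known to act on macrophages and adipocytes in obesity.

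Promoters of 6 members described below are shown first, from 250 bases before to 50 bases after the start site (RefSeq, GRCm38.p6, 5′ to 3′), to show the elements that interferon signals use. Capitals mark every match to the ISRE core, GAAA then any 2 bases then GAAA (TTTC, any 2 bases and TTTC on the other strand), or to the GAS core TTCNNNGAA, which reads the same on both strands. Overlapping matches run together.
Igtp, chr11:58199306-58199605, plus strand: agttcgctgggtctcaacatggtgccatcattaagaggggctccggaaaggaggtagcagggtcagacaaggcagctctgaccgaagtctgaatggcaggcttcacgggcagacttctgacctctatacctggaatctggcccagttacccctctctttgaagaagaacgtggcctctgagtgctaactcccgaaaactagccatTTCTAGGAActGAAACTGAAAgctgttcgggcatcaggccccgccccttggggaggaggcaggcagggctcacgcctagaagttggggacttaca
Irgm2, chr11:58214727-58215026, plus strand: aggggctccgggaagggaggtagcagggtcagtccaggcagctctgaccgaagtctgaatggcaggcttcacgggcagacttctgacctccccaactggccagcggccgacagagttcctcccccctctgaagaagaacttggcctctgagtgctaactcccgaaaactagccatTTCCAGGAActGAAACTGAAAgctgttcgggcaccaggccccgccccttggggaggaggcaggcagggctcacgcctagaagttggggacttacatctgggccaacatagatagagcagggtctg
Irgm1, chr11:48871371-48871670, minus strand: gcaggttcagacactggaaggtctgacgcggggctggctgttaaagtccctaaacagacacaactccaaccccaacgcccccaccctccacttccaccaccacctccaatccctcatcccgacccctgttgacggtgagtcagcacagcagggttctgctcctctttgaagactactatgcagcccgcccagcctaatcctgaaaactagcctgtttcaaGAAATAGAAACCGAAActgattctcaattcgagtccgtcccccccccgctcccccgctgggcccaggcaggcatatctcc
Gbp2, chr3:142620413-142620712, plus strand: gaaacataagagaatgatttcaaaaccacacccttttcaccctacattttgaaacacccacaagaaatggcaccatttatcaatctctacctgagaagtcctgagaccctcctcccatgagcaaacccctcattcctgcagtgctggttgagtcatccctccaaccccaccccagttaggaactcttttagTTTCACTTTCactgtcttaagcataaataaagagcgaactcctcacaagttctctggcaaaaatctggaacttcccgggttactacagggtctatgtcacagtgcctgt
Ifit1, chr19:34640639-34640938, plus strand: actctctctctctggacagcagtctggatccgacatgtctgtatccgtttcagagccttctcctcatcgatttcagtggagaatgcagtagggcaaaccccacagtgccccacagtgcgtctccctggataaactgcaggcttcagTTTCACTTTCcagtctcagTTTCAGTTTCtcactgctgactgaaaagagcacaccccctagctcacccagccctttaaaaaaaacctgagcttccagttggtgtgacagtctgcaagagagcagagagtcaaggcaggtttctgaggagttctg
Bst2, chr8:71537423-71537722, minus strand: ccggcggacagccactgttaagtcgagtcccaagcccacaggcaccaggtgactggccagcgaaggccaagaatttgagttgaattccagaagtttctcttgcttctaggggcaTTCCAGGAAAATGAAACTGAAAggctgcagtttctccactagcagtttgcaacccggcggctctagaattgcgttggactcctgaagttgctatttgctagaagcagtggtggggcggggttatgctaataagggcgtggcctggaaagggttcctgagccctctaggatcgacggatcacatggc
The GTPase genes Igtp and Irgm2 had 1 GAS core and 1 ISRE core each, at positions -45 and -34 from the start site in Igtp and -75 and -64 in Irgm2. The distance between the starts of the pair was 11 bases in both, and was again 11 in the promoter of Tgtp1, a related GTPase gene, at -88 and -77. Irgm1 had a pair of overlapping ISRE cores at -30 and -24 and no GAS core. Gbp2 had an ISRE core at -59 and Ifit1 had ISRE cores at -104 and -85. In Bst2 a GAS core at -136 ran into ISRE cores at -130 and -124. The promoter table held 31 of the 41 genes with 36 windows, 17 of which (47.2%) had the ISRE core and 9 (25.0%) the GAS core. Over all 32851 windows of the table the shares were 3.44% and 8.30%. These are matches of letters and not tested sites. Oasl2, Irf7 and Irf9, among others, had neither core in these windows.

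Before the comparisons, the pools themselves were checked. Pools stood apart in muscle, liver, adrenal or lymphocyte markers. Wild type casein pool 3 did so in liver (median 4.67), adrenal cortex (4.30), B cell (1.61) and T and NK cell markers (0.38). The others were wild type high fat diet pool 2 (skeletal muscle 4.51) and null high fat diet pool 1 (skeletal muscle 3.60). Without these 3 pools 3 members passed between genotypes averaged over the diets, Igtp, Usp18 and Cxcl10, where 8 passed with all pools, and 1 on the high fat diet, Usp18, where 2 did. Over all genes 548 then passed averaged over the diets, where 1368 did with all pools, and 440 on the high fat diet, where 1077 did. No value was set as a limit for this choice: wild type casein pool 1 (skeletal muscle 3.09) and null casein pool 1 (2.12) were kept, and leaving out either gave 8 members averaged over the diets. Ncf1, the gene of p47phox, had 3 probe sets. On 2 of them every null pool lay below every wild type pool, at -0.54 to -0.33 in null against 0.33 to 1.72 in wild type pools and at -0.27 to -0.16 in null against 0.16 to 0.83 in wild type pools, and on the third, with -0.16 to 0.03 in null against -0.27 to 0.26 in wild type pools, the genotypes overlapped.

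The comparison of genotypes averaged over both diets asked how these genes differed between null and wild type pools whichever diet was fed. Null pools had higher values for 8 of the 38 genes and lower values for 0 at an adjusted p under 0.05 in limma. The 8 were 4 immunity-related GTPases (Igtp, Iigp1, Irgm2 and Irgm1) and 4 type I targets (Bst2, Oasl2, Usp18 and Ifit2). Over all 18194 genes 4.09% were called higher and 3.42% lower in this comparison. The difference lay above 0 for 30 of the 38 genes, with a median of 0.18, against a median of -0.02 over all genes tested; without null high fat diet pool 3 it was 0.12. The 8 rises ran on the log2 scale from 0.25 for Irgm1 to 0.85 for Bst2, where 1 is a 2-fold difference. All 3 pools of each null group lay above all 6 wild type pools for Igtp, Irgm1 and Usp18, where 1.27% of all genes were higher without overlap and 1.8% lower (3.07% in all). The count of 8 fell to 1 (Igtp) without null casein pool 2, null high fat diet pool 2, wild type casein pool 2 or wild type high fat diet pool 3, and to 2 without pool 3 of the other 3 groups or without either of the first 2 wild type pools on the high fat diet. Calls over all genes fell too, from 1368 to between 157 and 455 where the member count was 1, and to between 323 and 716 where it was 2. The call of Igtp held without any 1 pool, and each of the other 7 was lost without 7 to 12 of the 12 pools left out in turn (adjusted p from 0.0514 to 0.114 where lost).

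**Figure D1:**
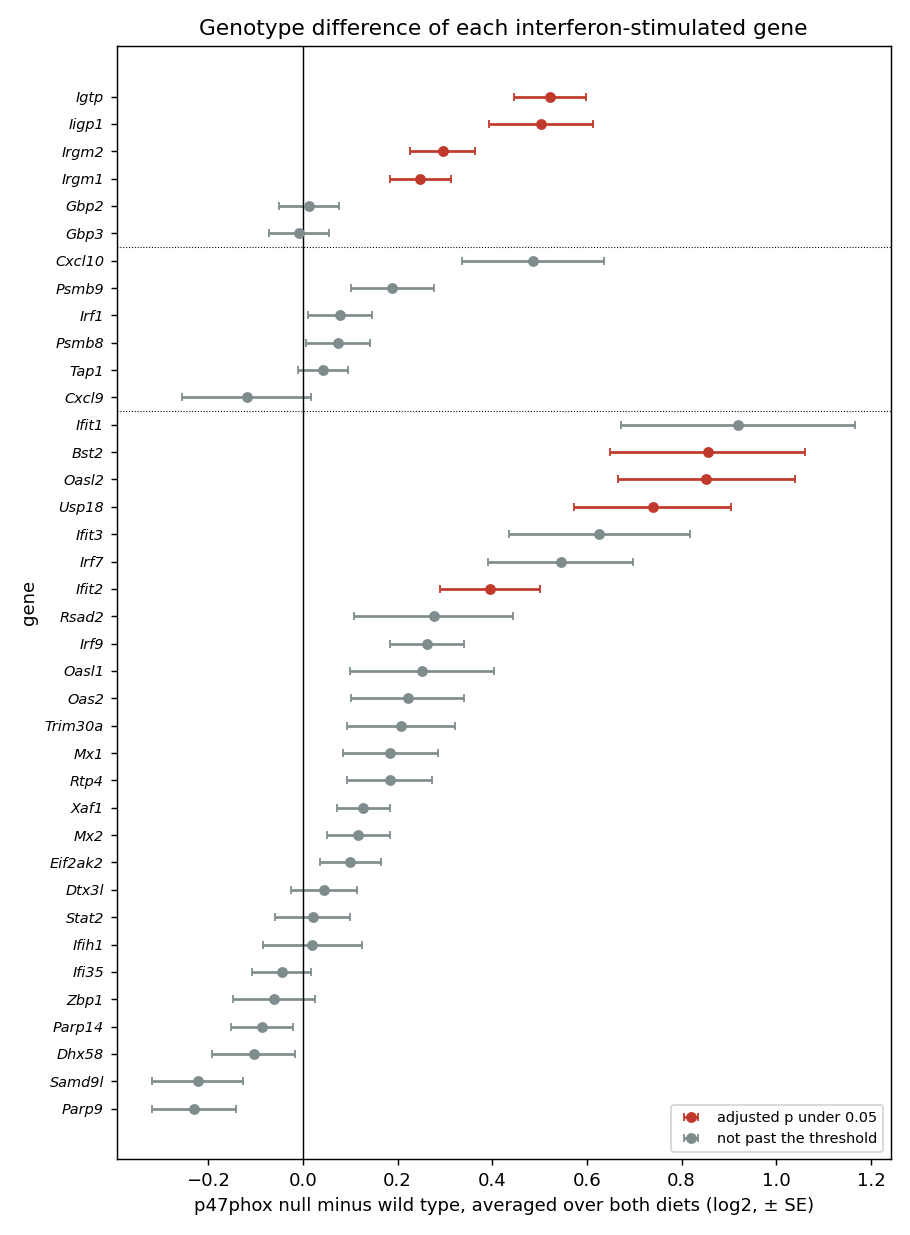
Difference of each of the 38 genes between p47phox null and wild type pools averaged over both diets (x axis, log2, null minus wild type, ± SE, n = 3 pools a group), with red points at an adjusted p under 0.05. The GTPases stand at the top, chemokines, antigen processing genes and Irf1 in the middle and type I targets below, and the red points lie between 0.25 and 0.85.

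Among the interferon gamma GTPases, the immunity-related members rose in null pools and the guanylate-binding proteins did not pass. Igtp, a regulatory GTPase of this family that is also called Irgm3, stood at 0.17, 0.09 and 0.46 in the null high fat diet pools, against -0.18, -0.41 and -0.17 in the wild type high fat diet pools. On casein it stood at 0.30, 0.40 and 0.33 in the null casein pools, against -0.26, -0.30 and -0.09 in the wild type casein pools. Every null pool lay above every wild type pool, on each diet. Averaged over the diets Igtp rose by 0.52 ± 0.08 (SE; 3 pools in each group; adjusted p in limma = 0.0102), which is the smallest adjusted p among the 38 genes. Without any 1 of the 12 pools the difference stayed between 0.47 and 0.56. On the high fat diet alone Igtp rose by 0.49 ± 0.11 (adjusted p = 0.0322), a call lost on leaving out null casein pool 2, pool 2 or 3 of the null high fat diet group, or any of the 3 wild type pools on that diet (adjusted p from 0.0525 to 0.116).

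Irgm1 and Irgm2 are regulatory GTPases that keep the effector members inactive on the cell's own membranes. Irgm1 was at 0.04, 0.02 and 0.21 in the null high fat diet pools, against -0.17, -0.16 and -0.28 in the wild type high fat diet pools, and at 0.25, 0.02 and 0.03 in the null casein pools, against -0.05, -0.24 and -0.02 in the wild type casein pools. Its groups did not overlap on either diet, but the gap was narrow on casein. Irgm1 rose by 0.25 ± 0.07 averaged over the diets (adjusted p = 0.0457), a call that was also lost with the probe set of the largest SD (0.0568), quantile normalization (0.0505) or the pool number as a replicate block (0.0643). Irgm2 was at 0.37, 0.12 and 0.28 in the null high fat diet pools, against -0.07, -0.01 and 0.01 in the wild type high fat diet pools, and at 0.28, 0.10 and -0.04 in the null casein pools, against -0.10, -0.26 and -0.22 in the wild type casein pools. Its groups were also apart within each diet, while null casein pool 3 lay below wild type high fat diet pools 2 and 3. Irgm2 rose by 0.29 ± 0.07 (adjusted p = 0.0328).

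Iigp1 is an effector GTPase that coats the vacuoles of intracellular parasites. It was at -0.01, 0.01 and 0.32 in the null high fat diet pools, against 0.15, -0.35 and -0.38 in the wild type high fat diet pools, and at 0.36, 0.44 and 0.17 in the null casein pools, against -0.25, -0.56 and -0.33 in the wild type casein pools. The casein groups were apart, while on the high fat diet wild type pool 1 lay among the null pools. Iigp1 rose by 0.50 ± 0.11 averaged over the diets (adjusted p = 0.0287), with a difference of 0.70 ± 0.15 on casein (adjusted p = 0.418) and 0.30 ± 0.15 on the high fat diet (adjusted p = 0.257). Both of its probe sets were higher in null pools, by 0.59 and 0.41.

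Neither guanylate-binding protein passed. Gbp2, which helps to break open such vacuoles, was at -0.08, -0.09 and -0.02 in the null high fat diet pools, against 0.17, 0.10 and 0.35 in the wild type high fat diet pools, so that all null pools lay below all wild type pools on that diet. On casein it was at 0.26, 0.07 and 0.05 in the null casein pools, against -0.09, -0.13 and -0.30 in the wild type casein pools, and there all null pools lay above. The difference of Gbp2 was -0.27 ± 0.09 on the high fat diet (adjusted p = 0.092) and 0.30 ± 0.09 on casein (adjusted p = 0.542), and 0.01 ± 0.06 on average. The interaction, the high fat minus casein difference of the null mice less that of the wild type, was -0.57 ± 0.13 for Gbp2. It had the smallest unadjusted p of the 38 genes, 0.000991, and did not pass over all genes (limma adjusted p = 0.789). Both Gbp2 probe sets had this pattern, with interactions of -0.52 and -0.63. Gbp3 stayed within a range of 0.32 over the 12 pools, at 0.002, -0.16 and -0.11 in the null high fat diet pools, against -0.10, 0.07 and 0.01 in the wild type high fat diet pools, and at 0.10, 0.09 and -0.002 in the null casein pools, against -0.01, 0.15 and -0.16 in the wild type casein pools. Its groups overlapped on both diets.

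**Figure D2:**
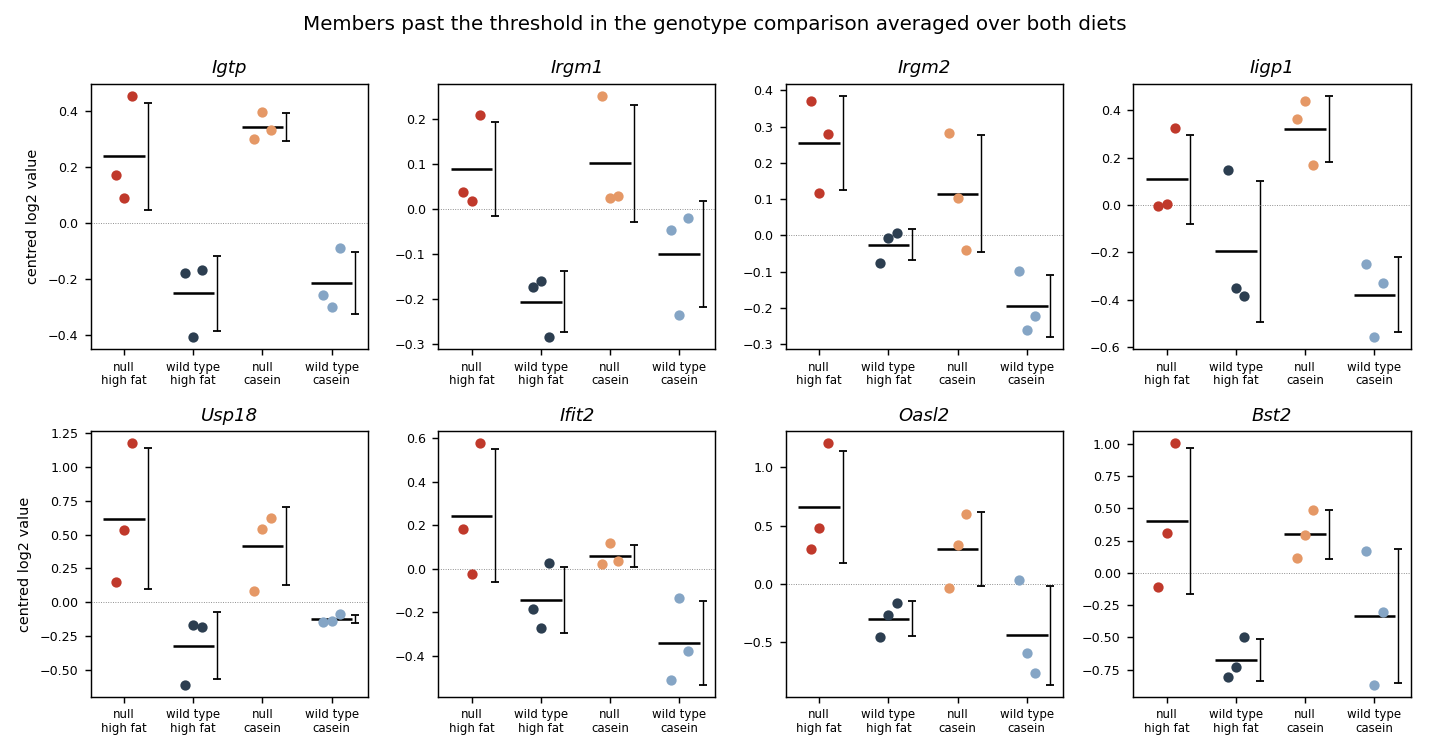
Values of the 8 genes called between genotypes averaged over both diets (y axis, log2 value centred on the median of 12 arrays), by group (x axis). Points are pools, bars are group means and whiskers beside them the SD (n = 3). Null pools of Igtp lie from 0.09 to 0.46, above all wild type pools.

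Among the 26 type I targets 4 rose and 0 fell in null pools averaged over the diets, 15.4% called in either direction where all genes gave 7.52%. The others ran from -0.23 for Parp9 to 0.92 for Ifit1, and the median of the 26 was 0.18, beside 0.27 for the 6 GTPases. Usp18 removes ISG15 from proteins and damps signalling from the type I receptor. It stood at 0.15, 0.53 and 1.17 in the null high fat diet pools, against -0.61, -0.17 and -0.19 in the wild type high fat diet pools, and at 0.09, 0.54 and 0.62 in the null casein pools, against -0.14, -0.14 and -0.09 in the wild type casein pools. No null pool of Usp18 overlapped a wild type pool, on either diet. Usp18 rose by 0.74 ± 0.17 on average (adjusted p = 0.0305) and by 0.94 ± 0.23 on the high fat diet (adjusted p = 0.0461). The call on the high fat diet was lost in 9 of the 12 fits that left out 1 pool, all but those without pool 1 of the null casein, null high fat diet or wild type casein group (adjusted p from 0.0517 to 0.142).

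Bst2, also called tetherin, holds budding virus at the cell surface. It was at -0.11, 0.31 and 1.0 in the null high fat diet pools, against -0.81, -0.73 and -0.50 in the wild type high fat diet pools, and at 0.11, 0.30 and 0.49 in the null casein pools, against 0.17, -0.87 and -0.30 in the wild type casein pools. The groups were apart on the high fat diet and overlapped on casein. Bst2 rose by 0.85 ± 0.21 on average (adjusted p = 0.0369), and its difference on the high fat diet was 1.08 ± 0.29 (adjusted p = 0.0552). Oasl2, of the oligoadenylate synthetase family that senses double-stranded RNA, was at 0.30, 0.48 and 1.21 in the null high fat diet pools, against -0.46, -0.27 and -0.17 in the wild type high fat diet pools, and at -0.03, 0.33 and 0.60 in the null casein pools, against 0.03, -0.59 and -0.77 in the wild type casein pools. Wild type casein pool 1 lay above null casein pool 1, and the high fat diet groups were apart. Oasl2 rose by 0.85 ± 0.19 on average (adjusted p = 0.0288).

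The Ifit genes encode proteins that bind foreign RNA. Ifit1 was at 0.38, 0.61 and 1.73 in the null high fat diet pools, against -0.57, -0.24 and -0.36 in the wild type high fat diet pools, and at -0.23, 0.70 and 0.96 in the null casein pools, against -0.19, 0.05 and -0.05 in the wild type casein pools. It had the widest span of the 38 genes, 2.31, with null high fat diet pool 3 at the top and wild type high fat diet pool 1 at the bottom. Its average difference, 0.92 ± 0.25, just missed the threshold (adjusted p = 0.0502) but passed with array weights, the probe set of the largest SD, quantile normalization, the replicate block or without flat probe sets. The difference on the high fat diet, 1.30 ± 0.35 (adjusted p = 0.0552), missed it too, and passed with array weights, the replicate block or without flat probe sets. With 1 pool left out, Ifit1 passed in both comparisons without null casein pool 1 or null high fat diet pool 1. It did not pass without any other pool, or without the 3 pools that stand apart. Ifit2 was at 0.18, -0.02 and 0.58 in the null high fat diet pools, against -0.18, -0.27 and 0.02 in the wild type high fat diet pools, and at 0.02, 0.12 and 0.03 in the null casein pools, against -0.51, -0.13 and -0.38 in the wild type casein pools. Its groups overlapped on the high fat diet and were apart on casein. Ifit2 rose by 0.40 ± 0.11 (adjusted p = 0.0491), a call that ended without any 1 of the 12 pools (adjusted p from 0.0546 to 0.114), and with quantile normalization (0.0883) or the replicate block (0.0643). Ifit3 differed by 0.63 ± 0.19 (adjusted p = 0.0716), with its groups apart on both diets.

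None of the transcription factors among the members passed. Irf7, which amplifies type I interferon production, differed by 0.55 ± 0.15 on average (adjusted p = 0.0565). It passed with array weights, without flat probe sets, and without null casein pool 1 or null high fat diet pool 1. Irf9, a DNA-binding factor of the type I pathway, differed by 0.26 ± 0.08 (adjusted p = 0.0663), and passed with array weights or without wild type casein pool 1. For Stat2 the difference was 0.02 ± 0.08 and for Irf1, an early target of interferon gamma, 0.08 ± 0.07. Among the remaining antiviral effectors the averages were 0.28 for Rsad2 (viperin), 0.25 for Oasl1, 0.22 for Oas2, 0.21 for Trim30a, 0.18 for Rtp4, 0.13 for Xaf1, 0.12 for Mx2 and 0.10 for Eif2ak2 (the kinase PKR), none of which passed (adjusted p from 0.182 to 0.362). Xaf1 passed with the probe set of the largest SD or without flat probe sets. Mx1, whose protein is missing from C57BL/6 mice because of a deletion in the gene, differed by 0.18 (adjusted p = 0.282). The RNA sensors Ifih1 (MDA5) and Dhx58 (LGP2) differed by 0.02 and -0.10, the nucleic acid sensor Zbp1 by -0.06, Ifi35 by -0.04, and the translation inhibitor Samd9l by -0.22. Parp9, Dtx3l and Parp14 encode ADP-ribosylation proteins, of which Parp9 and Dtx3l form a complex, and differed by -0.23, 0.04 and -0.09.

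Probe sets of 1 gene did not always move alike, and the mean then hides a difference. Rsad2 had probe sets at 0.04, 0.38 and 0.41 on average between genotypes. Those of Eif2ak2 were at -0.03, 0.01 and 0.32, those of Trim30a at 0.38 and 0.04, those of Xaf1 at -0.04 and 0.30, and those of Rtp4 at 0.33 and 0.04. Tap1, the peptide transporter of antigen presentation, had probe sets at 0.25, -0.05, -0.01 and -0.02. Since levels are lost, which of these probe sets were bright cannot be read.

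The chemokines and antigen processing genes made a smaller set of interferon gamma targets, and 0 of these 6 genes passed averaged over the diets (median 0.08; 1 of 6 at an unadjusted p under 0.05, where 25.6% of all genes were). Cxcl10, which draws T cells through the receptor CXCR3, differed by 0.49 ± 0.15 (adjusted p = 0.0749). It was at -0.33, 0.39 and 0.71 in the null high fat diet pools, against -0.06, -0.37 and 0.06 in the wild type high fat diet pools, and at 0.21, 0.18 and 0.12 in the null casein pools, against -0.49, -0.35 and -0.43 in the wild type casein pools. The casein groups were apart, and the high fat diet groups overlapped through the low null pool 1. Cxcl9, a ligand of the same receptor, was at 0.08, -0.03 and -0.45 in the null high fat diet pools, against 0.16, 0.11 and 0.69 in the wild type high fat diet pools, and at 0.12, 0.02 and -0.06 in the null casein pools, against -0.15, 0.07 and -0.48 in the wild type casein pools. On the high fat diet its null pools lay below all wild type pools, with a difference of -0.45 ± 0.19 (adjusted p = 0.175). The average differences of the immunoproteasome subunits Psmb8 and Psmb9 were 0.07 and 0.19 (adjusted p = 0.528 and 0.206).

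On the high fat diet alone, 2 of the 38 genes rose, Igtp and Usp18, and 0 fell. That is 5.26% called in either direction, near the 5.92% of all genes called there (3.21% higher, 2.71% lower). At an unadjusted p under 0.05 there were 15 members, where 24.9% of all genes were. Higher in null pools without overlap were 15 members, where 14.9% of all genes were, and 3 were lower without overlap (Gbp2, Cxcl9 and Parp9), where 17.3% of all genes were (32.2% in either direction). The median difference was 0.21 for the members, 0.29 for the GTPases and 0.24 for the type I targets, against -0.03 over all genes. The count was 0 on leaving out null casein pool 2, pool 2 or 3 of the null high fat diet group, or any of the 3 wild type pools on that diet. It was 6 without null high fat diet pool 1, 4 without wild type casein pool 1, 3 without null casein pool 1, and 1 without null casein pool 3 or wild type casein pool 3. Calls over all genes changed as well, from 1077 with all pools. They were 0 without pool 2 or 3 of the null high fat diet group, and 32 to 456 in the other fits without a member call. In the fits that called 1 to 6 members, 781 to 1617 genes were called.

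On casein, limma called 0 of 38 genes, as of all genes (0.0% called), with 9 of the 38 at an unadjusted p under 0.05 where 8.12% of all genes were. Differences lay above 0 for 33 of the 38, with a median of 0.18 against -0.01 over all genes, and for all 6 GTPases, with a median of 0.30. Higher in null pools without overlap were 13 members and lower 0, where 5.4% and 6.57% of all genes were. The 13 held 5 of the 6 GTPases. The smallest p-values belonged to Igtp, at 0.56 ± 0.11 (adjusted p = 0.291), Iigp1, Gbp2 and Irgm2, at 0.31 ± 0.10 (adjusted p = 0.542). The casein and the high fat diet comparisons share no pool, and the averaged comparison is made of both.

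**Figure D3:**
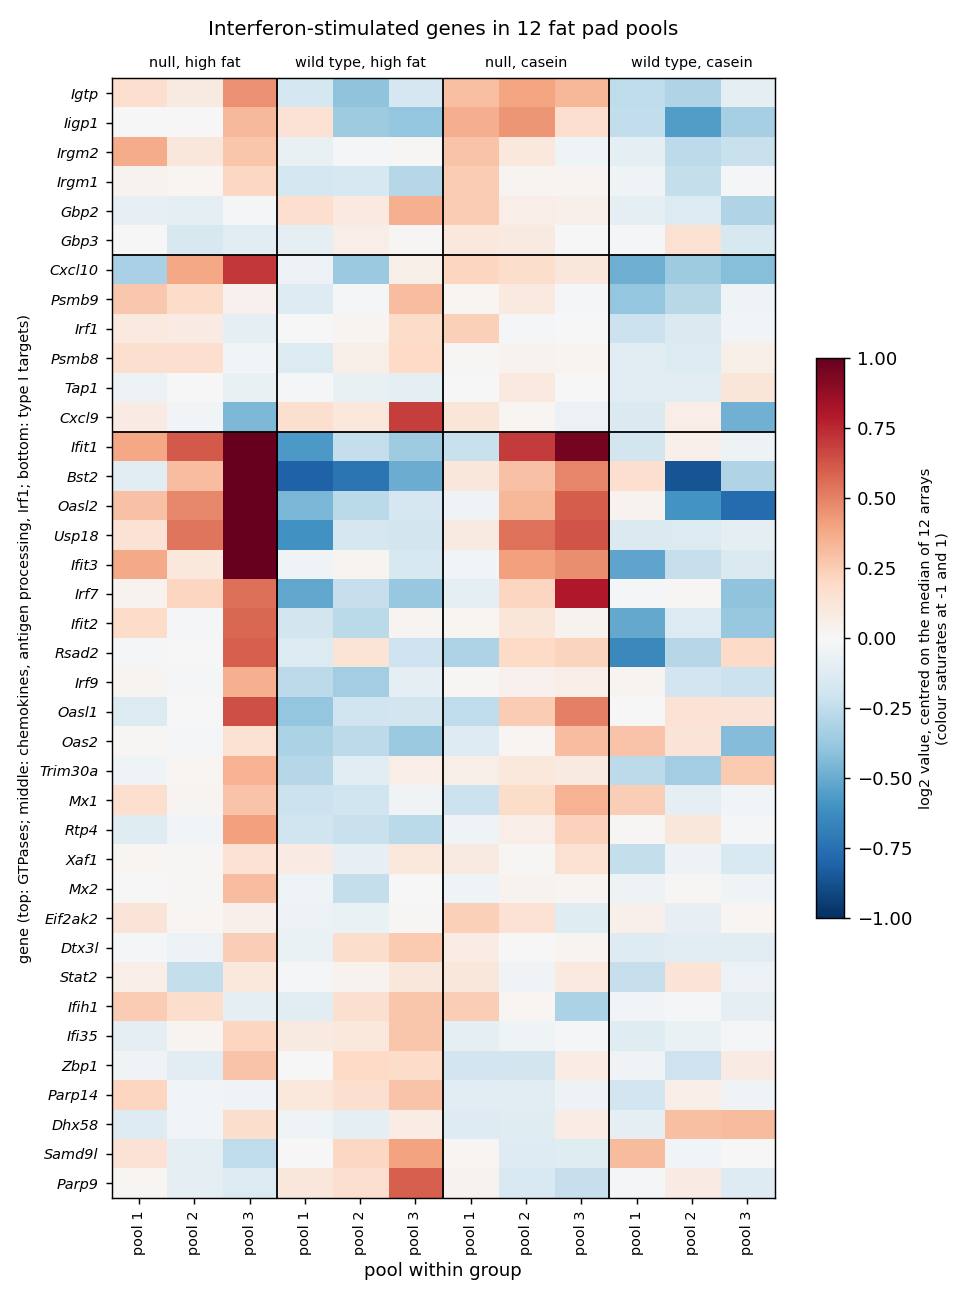
Values of the 38 genes (rows) in the 12 pools (columns), coloured by the log2 value centred on the median of 12 arrays. Null high fat diet pool 3 is the highest pool for 15 genes, most of them type I targets, and wild type high fat diet pool 3 for 10 others such as Parp9, Cxcl9 and Gbp2.

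The diet comparisons asked whether the high fat diet moved these genes within a genotype. In wild type pools 0 of 38 passed in limma (8 at an unadjusted p under 0.05, where 7.61% of all genes were; 0.0% of all genes passed), with a median of 0.10 for the members against 0.001 over all genes. That median was 0.045 without wild type casein pool 1, and 0.044 when pool 3 of the wild type high fat diet group was left out. The members with the smallest p were Gbp2, at 0.38 ± 0.09 (adjusted p = 0.462), Cxcl9, at 0.51 ± 0.19 (adjusted p = 0.628), Ifi35, at 0.23 ± 0.09 (adjusted p = 0.628), and Parp14, at 0.24 ± 0.09 (adjusted p = 0.639). Groups did not overlap for 8 members higher and 4 lower on the high fat diet, where 7.07% and 4.86% of all genes were; the 4 lower were Usp18, Ifit1, Oasl1 and Rtp4. Parp14 was at 0.10, 0.16 and 0.29 in the wild type high fat diet pools, against -0.19, 0.07 and -0.04 in the wild type casein pools. Ifi35 was at 0.09, 0.11 and 0.28 in the wild type high fat diet pools, against -0.12, -0.07 and -0.02 in the wild type casein pools, and at -0.10, 0.03 and 0.22 in the null high fat diet pools, against -0.09, -0.04 and -0.01 in the null casein pools. In both genes every high fat diet pool of the wild type lay above every casein pool.

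In null pools 0 of 38 passed in limma between the diets (0 at an unadjusted p under 0.05, where 4.0% of all genes were; 0.0% of all genes passed), with a median of 0.05. Gbp2 had the smallest p there, at -0.19 ± 0.09 (adjusted p = 1), followed by Gbp3, at -0.15 ± 0.09, Parp14, at 0.14 ± 0.09, and Irgm2, at 0.14 ± 0.10. Parp14 was at 0.056 without null high fat diet pool 1. Irgm2 was at 0.064 without null casein pool 3, 0.22 without null casein pool 1, 0.08 without null high fat diet pool 1, and 0.036 with array weights. The pools of Parp14 were at 0.21, -0.03 and -0.04 in the null high fat diet pools, against -0.11, -0.11 and -0.05 in the null casein pools. Without overlap 1 member was higher on the high fat diet, Parp14, and 1 lower, Gbp2, where 4.89% and 5.7% of all genes were. The interaction passed for 0 of 38 (2 at an unadjusted p under 0.05, Gbp2 and Cxcl9, where 6.12% of all genes were; 0.0% of all genes passed). Cxcl9 differed by -0.67 ± 0.27 (adjusted p = 0.789), Irf1 by -0.24 ± 0.13 and Xaf1 by -0.21 ± 0.11. The Xaf1 probe sets had interactions of -0.35 and -0.06, and the gene was at -0.059 with the probe set of the largest SD or without flat probe sets. Irf1 was at -0.12 with array weights and at -0.16 without null casein pool 1. Irf1 was at 0.10, 0.09 and -0.10 in the null high fat diet pools, against 0.01, 0.03 and 0.18 in the wild type high fat diet pools, and at 0.24, -0.01 and -0.01 in the null casein pools, against -0.21, -0.14 and -0.03 in the wild type casein pools. Xaf1, a partner of the apoptosis inhibitor XIAP, was at 0.02, 0.01 and 0.14 in the null high fat diet pools, against 0.08, -0.09 and 0.11 in the wild type high fat diet pools, and at 0.09, 0.01 and 0.15 in the null casein pools, against -0.24, -0.05 and -0.15 in the wild type casein pools. For both genes the null pools lay above the wild type pools on casein and overlapped them on the high fat diet.

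**Figure D4:**
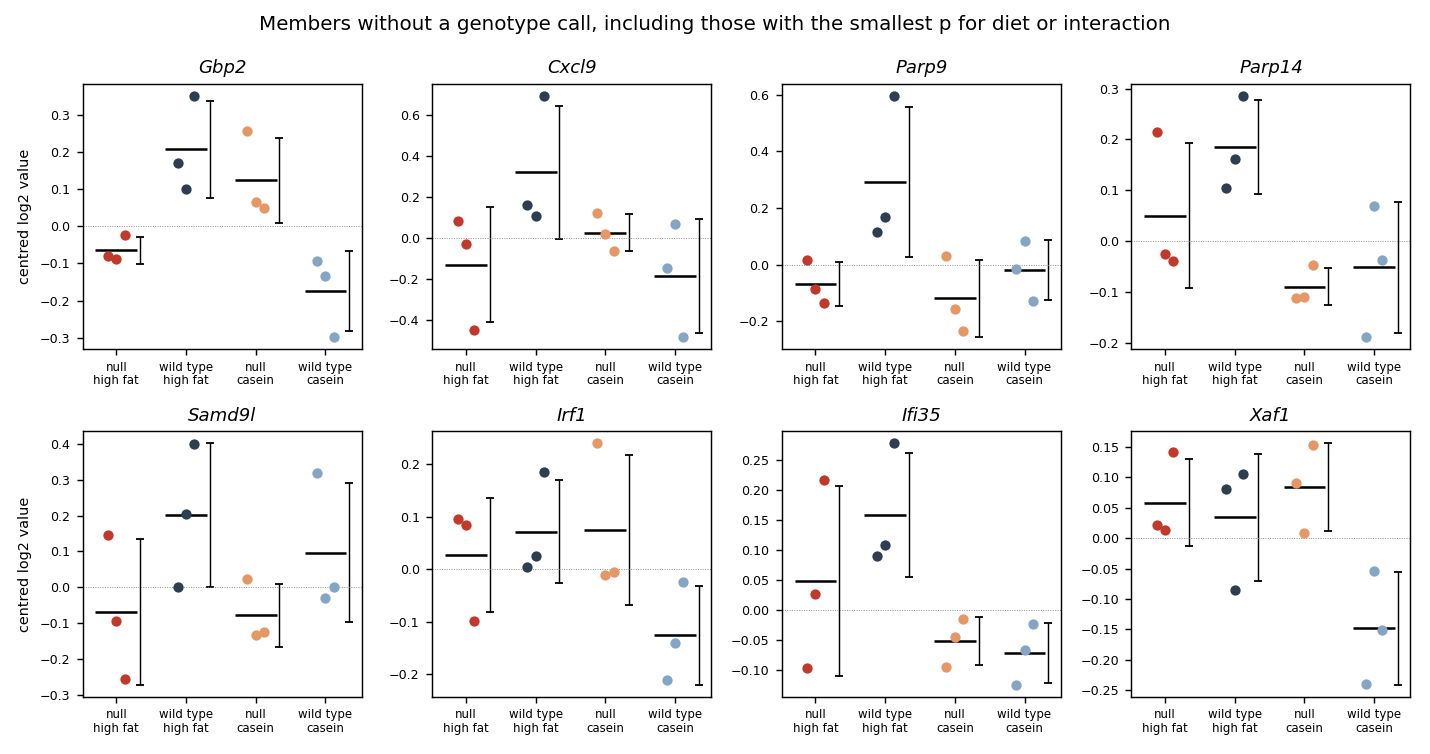
Values of 8 members with no genotype call (y axis, log2 value centred on the median of 12 arrays) by group (x axis), with points for pools, bars for means and whiskers for the SD (n = 3). In Gbp2 the null pools lie below the wild type pools on the high fat diet and above them on casein; Parp9 and Cxcl9 are highest in wild type high fat diet pool 3, at 0.60 and 0.69.

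The wider pathway was read through lists of genes that are not members. Of 23 measured interferons, receptors and signalling genes 0 passed in limma averaged over the diets, where 7.52% of all genes did. Their median was -0.02, as over all genes. Ifng, which encodes interferon gamma, differed by -0.07 ± 0.06 and Ifnb1, which encodes interferon beta, by -0.06 ± 0.08. The receptor chains Ifnar1 and Ifngr1 differed by 0.05 ± 0.06 and 0.01 ± 0.12, and Socs1, a feedback inhibitor that interferon gamma induces, by -0.12 ± 0.10 (adjusted p = 0.469). Of 14 nucleic acid sensors and genes that act with them upstream of interferon, 2 fell and 0 rose. These were Tbk1, a kinase that activates IRF3, by 0.23 (limma adjusted p = 0.0446), and Tlr3, a receptor for double-stranded RNA, by 0.30 (adjusted p = 0.0447). Over all genes 3.42% were called lower and 4.09% higher there. The calls of Tbk1 and Tlr3 were each lost without 10 of the 12 pools left out in turn (adjusted p from 0.0513 to 0.102). They were also lost with quantile normalization (0.0583 and 0.0529) or the replicate block (0.0658 and 0.0656). Tbk1 was lost without the 3 pools that stand apart (0.117), and Tlr3 with the probe set of the largest SD (0.0906) or without flat probe sets (0.0501). On the high fat diet alone 1 of the 14 fell and 0 rose, where 2.71% and 3.21% of all genes did. This was Tbk1, by 0.39 (limma adjusted p = 0.0322), which differed by -0.08 ± 0.09 on casein. Its call on the high fat diet was lost without 6 of the 12 pools left out in turn (adjusted p from 0.0513 to 0.122). Quantile normalization (0.0511), the replicate block (0.0534) and leaving out the 3 pools (0.114) also ended it.

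Of 37 other interferon-stimulated genes 6 rose and 1 fell averaged over the diets, where 4.09% and 3.42% of all genes did. Of the 37 differences 20 lay above 0, with a median of 0.05. Ifi47, an immunity-related GTPase like Igtp, rose by 0.46 ± 0.11 (adjusted p = 0.0334), and was at -0.01, 0.13 and 0.42 in the null high fat diet pools, against -0.24, -0.46 and -0.31 in the wild type high fat diet pools, and at 0.08, 0.22 and 0.11 in the null casein pools, against -0.22, -0.60 and 0.01 in the wild type casein pools. Rnf213 and Trim25, ubiquitin ligases, rose by 0.28 ± 0.05 (adjusted p = 0.0165) and 0.34 ± 0.07 (adjusted p = 0.0287), with no null pool overlapping a wild type pool. Ifitm3, which blocks entry of viruses, rose by 0.43, and Lgals3bp, a secreted glycoprotein, by 0.36. The difference of Lgals3bp was 0.615 ± 0.12 on casein (limma adjusted p = 0.291) and 0.115 ± 0.12 on the high fat diet. Ifitm1, a membrane protein of the same family as Ifitm3, rose by 2.25 ± 0.58 (adjusted p = 0.0448). Its pools were at 0.36, 1.16 and 2.06 in the null high fat diet pools, against -1.14, -1.75 and -1.70 in the wild type high fat diet pools, and at -0.36, 1.68 and 1.79 in the null casein pools, against 1.14, -2.30 and -1.06 in the wild type casein pools. Wild type casein pool 1 overlapped the null pools, and it also had the highest ovary and oviduct marker median of the wild type pools, 0.47. The same pool was the highest wild type pool for Bst2 (0.17), Oasl2 (0.03) and Ifitm3 (0.06). Ifi27 fell by 0.39 (adjusted p = 0.0342). Ifi202b, of the HIN family, differed by -0.07 ± 0.07 and stayed within a range of 0.35 over the 12 pools. Guanylate-binding proteins outside the member list did not pass either, with average differences of 0.21 for Gbp6 and 0.10 for Gbp7. Gbp6 differed by -0.18 on the high fat diet and 0.59 on casein, the same signs as Gbp2. Of the 12 pools left out in turn, only null casein pool 2 ended the call of Rnf213 (limma adjusted p = 0.0514). Each of the other 6 calls was lost without 7 to 9 of them. Without the 3 pools that stand apart, all these calls but that of Ifi47 were lost (0.0624 for Rnf213 to 0.115 for Lgals3bp). Ifitm1 and Ifitm3 were also lost with quantile normalization (0.0557 and 0.0529) or the replicate block (0.0739 and 0.0625), and Ifi27 with the replicate block (0.0612). On the high fat diet alone 2 of the 37 rose and 1 fell, where 3.21% and 2.71% of all genes did. Rnf213 rose by 0.30 (limma adjusted p = 0.0361) and Trim25 by 0.47 (0.0328), and Ifi27 fell by 0.53 (0.0427). Leaving out 1 pool ended these calls in 6, 6 and 9 of the 12 fits. They were also lost without the 3 pools that stand apart.

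Genes of class I and class II antigen presentation had mostly negative genotype differences averaged over the diets (3 of 14 above 0, median -0.10). The class II genes lay lower, from -0.40 for Cd74 to -0.10 for H2-Aa. The class I genes ran from -0.15 for Psmb10 to 0.10 for H2-K1. On casein 6 of 14 differences lay above 0, with a median of -0.04. The class II genes ran there from -0.36 for H2-DMa to 0.02 for H2-Aa, and the class I genes from -0.04 for Erap1 to 0.33 for H2-K1. Of 14 measured genes 1 fell and 0 rose averaged over the diets, where 3.42% and 4.09% of all genes did. The gene that fell was H2-DMa, a class II peptide exchange subunit, by 0.36 (limma adjusted p = 0.0401). That call was lost without 9 of the 12 pools left out in turn. It was also lost with the replicate block (0.0643) and without the 3 pools that stand apart (0.0901). On the high fat diet the median was -0.25, with 1 of 14 differences above 0 and none past the threshold. In wild type pools between the diets the median was 0.24, with 13 of 14 differences above 0; these comparisons share the wild type high fat diet pools. B2m, the light chain of class I, differed by -0.36 ± 0.15 on the high fat diet and by 0.18 ± 0.15 on casein, null minus wild type.

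Markers of other cell types varied over the same pools. The median of 11 of 12 listed ovary and oviduct markers was 0.12 to 1.15 in the null against -0.95 to -0.72 in the wild type pools on the high fat diet, and -0.04 to 0.27 in the null against -1.09 to 0.47 in the wild type pools on casein. That of 12 macrophage markers was -0.10 to 0.07 in the null against -0.02 to 0.54 in the wild type pools on the high fat diet, and -0.13 to 0.16 in the null against -0.22 to 0.10 in the wild type pools on casein, and that of 8 of 10 adipocyte markers was -0.54 to 0.03 in the null against 0.07 to 0.26 in the wild type pools on the high fat diet, and -0.19 to 0.17 in the null against -0.10 to 0.21 in the wild type pools on casein. For 14 of 16 T and NK cell markers, the cells that make interferon gamma, it was -0.14 to -0.02 in the null against -0.05 to 0.10 in the wild type pools on the high fat diet, and -0.004 to 0.07 in the null against -0.06 to 0.38 in the wild type pools on casein. For 5 plasmacytoid dendritic cell markers, a list that also holds the member Bst2, it was -0.11 to 0.14 in the null against -0.12 to -0.06 in the wild type pools on the high fat diet, and 0.08 to 0.34 in the null against -0.16 to 0.31 in the wild type pools on casein. On the high fat diet the ovary and oviduct median was higher in every null pool than in every wild type pool, and so was the mesothelial median (0.31 to 0.47 in null against -1.35 to 0.24 in wild type pools), while the endothelial, adipocyte and B cell medians were lower. Null high fat diet pool 3, where 15 members were highest, had an ovary and oviduct median of 0.92 and the lowest adipocyte median, -0.54. Wild type high fat diet pool 3, where 10 members were highest, had the highest macrophage median, 0.54. Their part in the results was not tested.

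**Figure D5:**
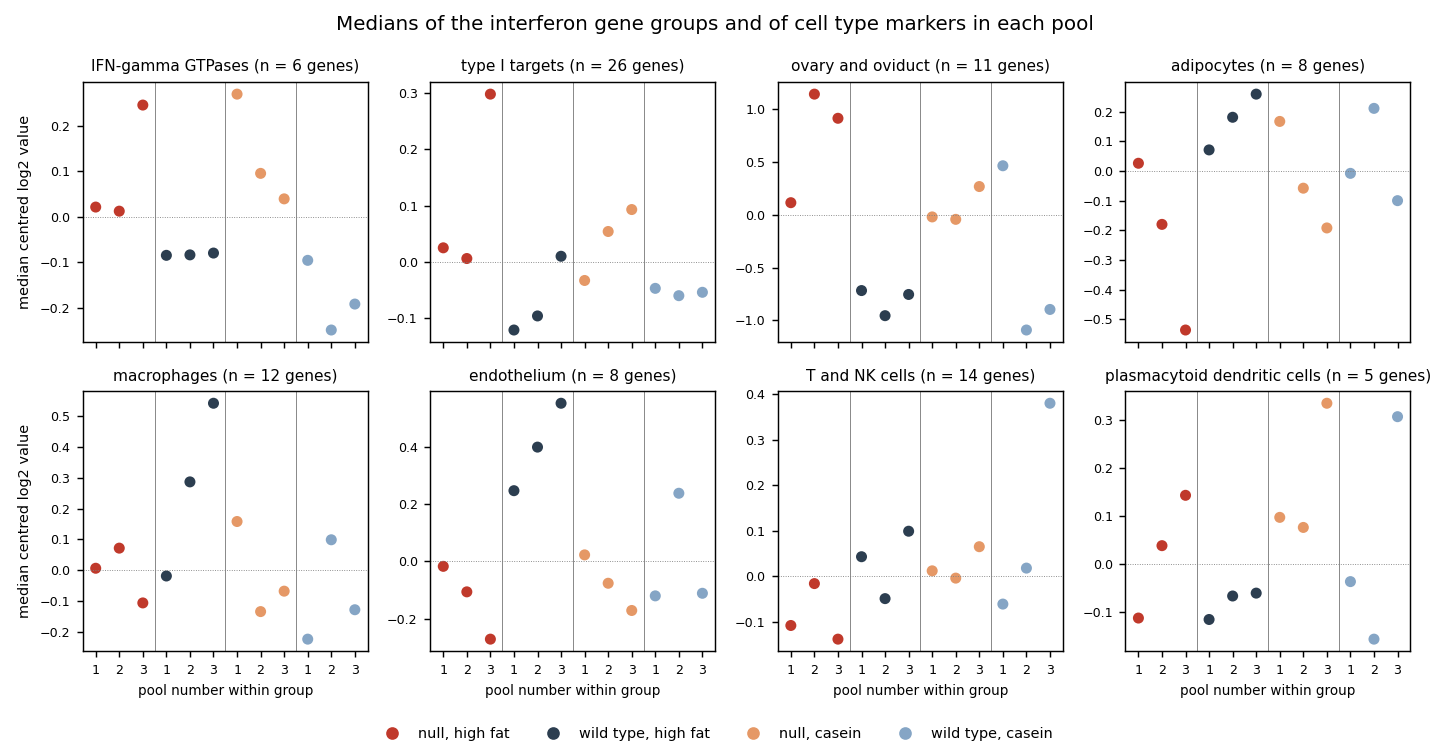
Median log2 value (y axis, centred on the 12 arrays) of 2 groups of interferon-stimulated genes and of 6 marker lists in each pool (x axis, pool number, coloured by group). The GTPase median is above 0 in all null pools and below 0 in all wild type pools, and on the high fat diet the ovary and oviduct markers of all null pools lie above those of all wild type pools.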

How the data were processed

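Total RNA of pooled abdominal fat pads (8 µg, biotin-labelled) was measured on 12 Affymetrix arrays, 3 pools in each of 4 groups, per the labels. GCOS and RMA were used, per the submitters' processing notes, with versions and settings not given in the sources used here. The deposited values are taken as log2 values, since RMA gives these; the authors had centred them, as 0 of 45101 probe sets have a median over the arrays that departs from 0 by more than 1e-06. The platform annotation gives 1 gene for 34958 probe sets, several for 932 and none for 9211, and the last 2 kinds were left out. Symbols were updated by gene identifier (34754 matched, RefSeq GRCm38.p6), which left 18194 genes. No 2 arrays were identical (0 of 66 pairs).

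Differences were tested on the mean of each gene's probe sets with limma (version 3.58.1, R version 4.3.3; lmFit and eBayes), in 1 fit of 4 group means to 12 arrays with 8 residual degrees of freedom. P-values are two-sided, adjusted by Benjamini and Hochberg over all genes, with a threshold of 0.05. The fit was tested on simulated data. The members, lists, tests and alternatives were chosen with earlier results of these data known, so no count over them is independent support. Values in every pool are given for the GTPases, for members past the threshold and for the 4 members with the smallest p in each comparison; in the wider lists genes past the threshold were named, and Ifng, Ifnb1, Ifnar1, Ifngr1, Socs1 and Ifi202b. Gbp6, Gbp7, B2m and the pool values of Cxcl10, Ifi47 and Ifitm1 were added after the values were seen. So were the split of class I from class II genes and the values of Tbk1 and Lgals3bp on each diet. Alternatives were another summary of probe sets, a second quantile normalization, a filter on flat probe sets, pool number as a block, array weights and leaving out pools.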

Additional observations from a re-analysis of the deposited data

How the results depend on the processing

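The direction of every named difference (42 results, of which 14 are in genes of the wider lists and were added after seeing the data) held under each alternative that gave it a value, and most calls depended on single pools. Leaving out 1 pool at a time gave 1 to 10 members called averaged over the diets, where 8 were called with all pools, and 0 to 6 between genotypes on the high fat diet, where 2 were. Over all genes these fits called 157 to 2339 averaged over the diets and 0 to 1617 on the high fat diet. Averaged over the diets Igtp was the only member called without null casein pool 2, null high fat diet pool 2, wild type casein pool 2 or wild type high fat diet pool 3. The count was 2 without pool 3 of the null casein, null high fat diet or wild type casein group, and pool 1 or pool 2 of the wild type high fat diet group, and 10 without null high fat diet pool 1. Medians ranged, leaving out 1 pool, averaged over the diets from 0.12 to 0.20 for members and 0.12 to 0.21 for type I targets, between diets in wild type pools from 0.044 to 0.14 for members, between genotypes on the high fat diet from 0.12 to 0.25 for members and 0.11 to 0.31 for type I targets, between diets in null pools from -0.036 to 0.077 and -0.028 to 0.12, and for the interaction of type I targets from 0.007 to 0.17. With array weights the count was 14 averaged over the diets (12 higher, and Parp9 and Samd9l lower), 13 on the high fat diet (9 higher, and Gbp2, Parp9, Parp14 and Samd9l lower) and 1 (Gbp3) between diets in null pools; the medians were then 0.14 for type I targets on the high fat diet, -0.029 for members and -0.028 for type I targets between diets in null pools, and -0.22 for GTPases in the interaction. Array weights also raised the calls over all genes to 5120 on the high fat diet, where 1077 were called without them. Without flat probe sets, which leaves 32 members and 11774 genes, 5 were called on the high fat diet, and the medians were 0.29 for members and 0.36 for type I targets there, 0.28 for members and 0.43 for GTPases on casein, 0.27 for members and 0.40 for GTPases on average, and -0.23 for GTPases in the interaction. With the probe set of the largest SD the type I median on the high fat diet was 0.34. Averaged over the diets, Irgm1 was also lost with the probe set of the largest SD, quantile normalization, the replicate block or without the 3 pools, and Ifit2 with quantile normalization, the replicate block or without the 3 pools; the others lost without the 3 pools are all but Igtp and Usp18. With the probe set of the largest SD, Rnf213 averaged 0.56, Tbk1 -0.39, and the diet difference of Parp14 was 0.36 in the wild type and 0.23 in the null mice (0.09 in null mice with array weights). Leaving out wild type high fat diet pool 3 put Cxcl9 at 0.32 between diets in wild type pools, and leaving out null casein pool 1 put Gbp2 at -0.12 in null pools. Without the 3 pools that stand apart the counts were 3 on average and 1 on the high fat diet. The pool numbers did not pair all the groups: same-numbered pools had correlations of their deviations from the group means from -0.62 to 0.59 over genes, and 0 of 12 pools correlated best with their own number in every other group. Between the null groups, pools 1 correlated at 0.55, pools 2 at -0.015 and pools 3 at 0.59. Pool 1 of either null group against pool 3 of the other gave -0.60 and -0.55. Differently numbered pools reached 0.615. Whether some groups shared a batch was not tested. With the pool number as a replicate block 7 members were called on average and 3 on the high fat diet. Where no cause is named, the cause was not tested. Because levels were removed by the centring, signal over background cannot limit or filter any result here, and the number of arrays limits the precision.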
